A study of Mus musculus with 4 samples.

Results

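The genes examined were 10 targets or partners of p53 that act in nutrient signalling, redox control and energy metabolism, namely the sestrins Sesn1, Sesn2 and Sesn3, the phosphatase Tigar, the glutaminase Gls2, the mTORC1 inhibitor Ddit4, the copper chaperone Sco2, the AMPK beta subunits Prkab1 and Prkab2, and the oxidoreductase Tp53i3. They were taken by gene symbol from the deposited expression table, in which 9 of the 10 had a row among 56691 genes in all. Tp53i3 was not analysed here. All 9 genes passed the filter on low counts and were tested.

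Sestrins are stress-inducible proteins that bind the GATOR2 complex and thereby restrain mTORC1, the kinase complex that promotes growth when amino acids are plentiful, and Ddit4 restrains the same complex through the TSC proteins. Tigar lowers fructose bisphosphate signalling and so steers glucose away from glycolysis and toward the pentose phosphate pathway, while Gls2 and Sco2 serve glutamine use and respiration in mitochondria. Wild-type p53 can induce many of these genes, and most also answer to other regulators such as FoxO factors, ATF4, hypoxia or glucocorticoids.

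RNA-seq was performed on 4 sarcomas of W/+ mice, 2 given arsenic trioxide (ATO 1 and ATO 2) and 2 labelled PBS (Ctl 1 and Ctl 2), to compare tumours with and without ATO. The series text speaks of a comparison before and after treatment, whereas the sample labels name separate ATO and PBS sarcomas and tie none to another, and the labels were followed here. All 4 carried the same heterozygous genotype, written p53R282W/+ in the labels after the human residue, so the Ctl group is mutant too and no wild-type tissue was analysed here. In the study the knock-in allele was germline on a C57BL/6N background and ATO was given long-term in drinking water. The labels give no age, sex or sarcoma subtype, describe for every sample a growth protocol for cultured cells that names dexamethasone, and do not state that each sarcoma came from its own animal, so p-values measure only the spread between these samples.

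Counts summed to 17465090 and 17971675 in Ctl 1 and Ctl 2 and 18134000 and 15259695 in ATO 1 and ATO 2. Mitochondrially encoded genes took 14.7% of the counts in ATO 2, against 1.98% in Ctl 1, 1.99% in Ctl 2 and 2.59% in ATO 1. Levels are given as CPM (counts scaled to library size with TMM factors) when a gene is compared between sarcomas, and as deposited FPKM (counts scaled to exon length and to the total count) when genes are compared with each other. Positions are those of GRCm38 in GENCODE M21. Differences are log2 fold changes of ATO over Ctl with their standard error (SE) from edgeR's quasi-likelihood test.

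Of the 9 genes, 0 passed a Benjamini-Hochberg adjusted p of 0.05 in edgeR, as did 0 of the 17188 genes tested (0%), where the smallest adjusted p was 0.570. An unadjusted p under 0.05 was obtained for 2 of the 9 genes, Sesn3 and Tigar, and for 1463 of all genes tested (8.51%). Other tools counted differently across all genes, with 753 past the adjusted threshold in DESeq2 (4.12% of the 18295 genes given an adjusted p), 541 in edgeR without the filter (1.75%), and 0 or 1 in limma. In CPM, the ATO sarcomas both exceeded the Ctl sarcomas for 2 of the 9 genes (Sesn1 and Tigar), beside 19.7% of all genes tested. They lay below both Ctl sarcomas for 4 of the 9 (Sesn2, Sesn3, Gls2 and Sco2), beside 20.2% of all genes. The fitted fold change was positive for 4 of the 9 genes and negative for 5, with a median of −0.10 (0.13 without Ctl 2). Over all genes the median was −0.016 (0.15 without Ctl 2) and 49.2% were positive. These shares of all genes are the background of the counts given for the other lists as well. With 2 sarcomas against 2, a two-sided exact permutation test of a single gene cannot go below p = 0.333.

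**Figure D1:**
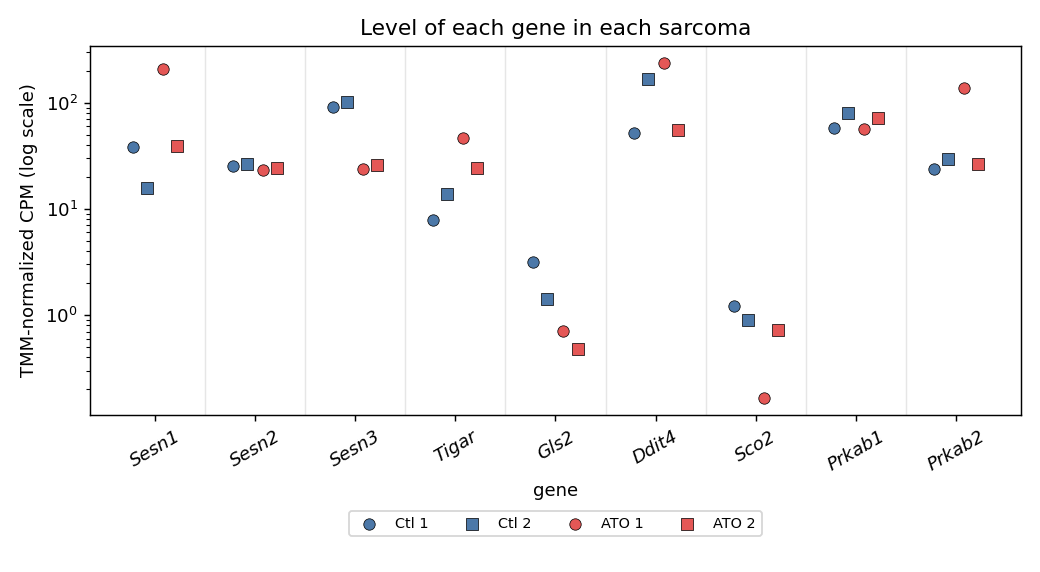
Level of each of the 9 genes in each sarcoma, in TMM-normalized CPM on a log axis, with blue points for Ctl and red points for ATO. Sesn3 shows a pair of close points in each group with ATO below Ctl, whereas Sesn1, Ddit4 and Prkab2 reach their highest level in ATO 1 (209, 238 and 139 CPM).

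Among the sestrins, Sesn3 had the widest gap between the nearest sarcomas of the groups, whereas the fitted difference was larger for Sesn1. Sesn3, a sestrin known as a FoxO target (chr9:14275067-14333101), was at 90.8 and 102 CPM in Ctl 1 and Ctl 2 and 23.9 and 26.2 CPM in ATO 1 and ATO 2. Both ATO sarcomas were far below both Ctl sarcomas, and the sarcomas within a group were alike. The log2 distance between the 2 Ctl sarcomas was 0.16 and that between the 2 ATO sarcomas 0.13, against medians of 0.51 and 0.54 over all genes tested. The log2 fold change of Sesn3 was −1.94 (SE 0.36, 95% confidence interval −2.89 to −0.99), a level 3.84-fold lower with ATO, with an unadjusted p of 0.00369 and an adjusted p of 0.570 in edgeR. Sesn3 was the member that passed the threshold in DESeq2, with an adjusted p of 0.0224, the lowest of a range up to 0.872 over the 14 alternatives. Leaving out any single sarcoma, its fold change stayed between −2.02 and −1.86.

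Sesn1, the sestrin first described as a p53-induced gene (chr10:41809935-41908424), showed the opposite order and far more spread. Its level was 38.0 and 15.8 CPM in Ctl 1 and Ctl 2 and 209 and 39.5 CPM in ATO 1 and ATO 2. ATO 1 stood alone at the top, and ATO 2 exceeded Ctl 1 by a narrow margin that vanished on the FPKM scale, where Ctl 1 had 10.4 and ATO 2 8.11. For Sesn1 the log2 fold change was 2.21 (SE 0.96, 95% confidence interval −0.30 to 4.72), with an adjusted p of 0.5998 in edgeR. Without ATO 1 it was 0.53, and with each of the other sarcomas left out it was between 1.70 and 2.98.

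Sesn2, a leucine-binding sestrin that ATF4 and p53 can induce (chr4:132492032-132510501), was nearly level across the sarcomas. It had 25.2 and 26.8 CPM in Ctl 1 and Ctl 2 and 23.5 and 24.2 CPM in ATO 1 and ATO 2. The highest value was 1.14 times the lowest, so the ATO group was lower by a small amount only. Its log2 fold change of −0.12 (SE 0.39, 95% confidence interval −1.13 to 0.89) had an adjusted p of 0.946 in edgeR.

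The balance among the sestrins therefore differed between sarcomas. Sesn1 made up 42.0% and 21.6% of the summed sestrin FPKM in Ctl 1 and Ctl 2 and 86.3% and 53.3% in ATO 1 and ATO 2. Sesn3 made up 26.1% and 36.3% in Ctl 1 and Ctl 2 and 2.57% and 9.20% in ATO 1 and ATO 2. The sum itself did not separate the groups, at 24.8 and 20.2 FPKM in Ctl 1 and Ctl 2 and 61.1 and 15.2 FPKM in ATO 1 and ATO 2. Sesn1 was the most abundant sestrin in both ATO sarcomas and in Ctl 1, and Sesn2 in Ctl 2.

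**Figure D2:**
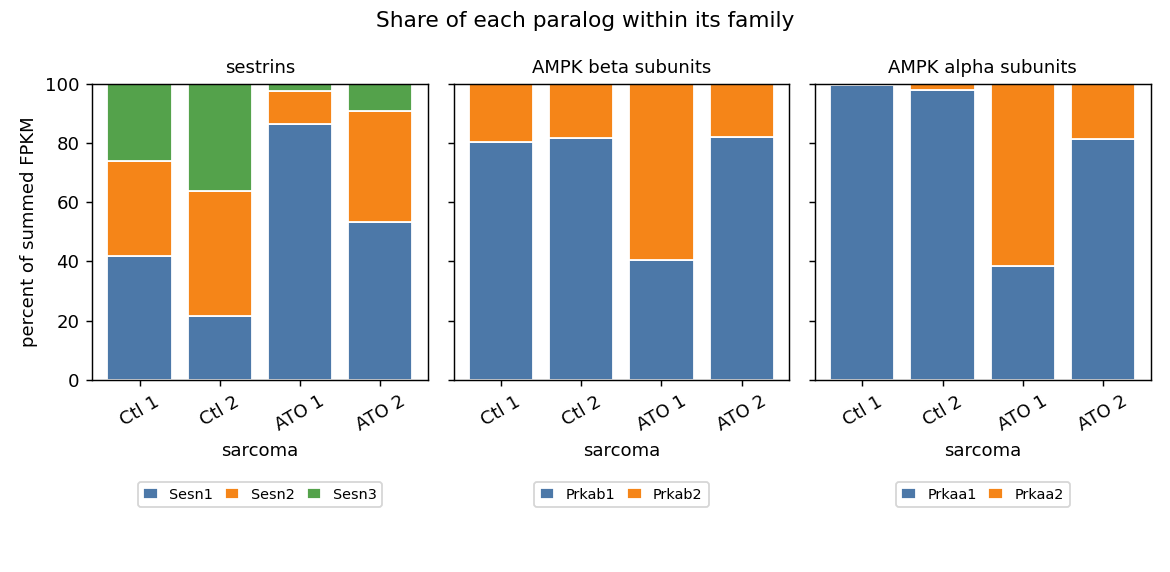
Share of each paralog in the summed FPKM of its family, as stacked bars in percent for each sarcoma, for the sestrins, the AMPK beta subunits and the AMPK alpha subunits. Sesn3 has its smallest shares in the ATO sarcomas (2.57% and 9.20%), and ATO 1 differs from the other 3 sarcomas by its large shares of Prkab2 (59.5%) and Prkaa2 (61.7%).

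The AMPK beta subunits hold the catalytic and regulatory subunits of the energy-sensing kinase together, and Prkab1 is a known p53 target whereas Prkab2 is abundant in skeletal muscle. Prkab1 (chr5:116013586-116024508) had 58.2 and 79.3 CPM in Ctl 1 and Ctl 2 and 57.0 and 71.4 CPM in ATO 1 and ATO 2. The groups overlapped, and the log2 fold change was −0.10 (SE 0.39, 95% confidence interval −1.11 to 0.91), with an adjusted p of 0.958 in edgeR. On the FPKM scale both ATO sarcomas lay below both Ctl sarcomas, at 18.6 and 19.0 against 20.7 and 28.6. Without ATO 1 the fold change turned to 0.039, and without Ctl 2 to 0.13, where the medians of all genes were −0.16 and 0.15.

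Prkab2 (chr3:97658193-97673812) had 23.6 and 29.5 CPM in Ctl 1 and Ctl 2 and 139 and 26.3 CPM in ATO 1 and ATO 2. ATO 1 alone was high, while ATO 2 lay between the Ctl sarcomas. The log2 fold change of 1.64 (SE 0.85, 95% confidence interval −0.59 to 3.87) had an adjusted p of 0.644 in edgeR, and it was −0.030 without ATO 1. Prkab2 made up 59.5% of the beta subunit FPKM in ATO 1 against 18.1% to 19.6% elsewhere.

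Among the catalytic subunits, Prkaa2 was likewise highest in ATO 1. Prkaa2, the alpha subunit prominent in muscle, had 0.631 and 3.73 CPM in Ctl 1 and Ctl 2 and 163 and 29.2 CPM in ATO 1 and ATO 2, with a log2 fold change of 5.46 (SE 1.37) and an adjusted p of 0.570 in edgeR. Prkaa1, the widely expressed alpha subunit, had 76.3 and 102 CPM in Ctl 1 and Ctl 2 and 59.2 and 73.6 CPM in ATO 1 and ATO 2, with a log2 fold change of −0.42 (SE 0.38). Prkaa2 provided 61.7% of the alpha subunit FPKM in ATO 1, 18.8% in ATO 2, 2.11% in Ctl 2 and 0.502% in Ctl 1. Among the 9 genes of the remaining AMPK subunits and upstream kinases, 0 passed the adjusted threshold in edgeR, 1 (Prkaa2) had an unadjusted p under 0.05, beside 8.51% of all genes tested, and the median log2 fold change was 0.56 (0.34 without ATO 2, 0.27 on log2(FPKM + 1), 0.053 on TPM). The ATO sarcomas also both exceeded the Ctl sarcomas for Prkag2 (0.76), the upstream kinase Stk11 (0.57) and its scaffold Cab39 (0.56, overlapping on FPKM), and lay below them for Prkaa1, for Prkag1 (−0.37), the most abundant of the list, and for the Stk11 partner Strada (−0.60). Prkaa1 was at −0.21 without Ctl 2, and Prkag2 at 0.34 without ATO 2.

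Skeletal muscle markers were also highest in ATO 1. All 9 markers had both ATO sarcomas above both Ctl sarcomas in CPM, with Myog overlapping on FPKM, and their summed level was 22.4 and 369 CPM in Ctl 1 and Ctl 2 and 39515 and 2863 CPM in ATO 1 and ATO 2. The most abundant was Acta1, the skeletal actin, and Myog, a myogenic factor, was at 0 in Ctl 1, where 3 counts correspond to 0.172 CPM. Sesn1, Prkab2 and Prkaa2 were all highest in ATO 1, the sarcoma with the highest muscle sum. In bulk RNA, more cells of a type and more RNA per cell cannot be told apart, and the part of muscle RNA in these levels was not tested.

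Other marker lists also differed between sarcomas. The 6 adipocyte markers had both ATO sarcomas above both Ctl sarcomas, with sums of 165 and 321 CPM in Ctl 1 and Ctl 2 and 1239 and 8375 CPM in ATO 1 and ATO 2. Fabp4 was the most abundant of them, Lep was at 0 in both Ctl sarcomas and Plin1 at 0 in Ctl 1. The 5 proliferation genes, led by Pcna, summed to 561 and 385 CPM in Ctl 1 and Ctl 2 and 785 and 122 CPM in ATO 1 and ATO 2. Cdk1 was the gene whose groups did not overlap, with ATO lower by a narrow margin (50.5, 41.1, 41.0 and 9.86 CPM in the same order). Its log2 fold change was −0.85, and −0.15 without ATO 2. Of the 6 osteoblast markers, led by Col1a1, 2 (Ibsp and Alpl) lay above in both ATO sarcomas, with Ibsp overlapping on FPKM. The sums were 13813, 1655, 16915 and 2557 CPM in Ctl 1, Ctl 2, ATO 1 and ATO 2, with Sp7 at 0 in Ctl 1 and ATO 2. Col1a1 made up most of each sum, at 13724, 1624, 15779 and 2529 CPM in the same order. Ibsp, Sp7 and Bglap were high in ATO 1 alone, at 599, 137 and 36.0 CPM, against at most 0.721, 1.21 and 0.526 elsewhere. None of the 5 endothelial markers, led by Cdh5, or of the 5 erythroid markers, led by Hbb-bs, separated the groups, and both sums were highest in Ctl 2 (4625 and 13962 CPM). Elsewhere the endothelial sums were 497, 413 and 1015 CPM and the erythroid sums 213, 8581 and 1057 CPM, each for Ctl 1, ATO 1 and ATO 2. Of the 6 leukocyte markers, led by Cd68, Csf1r alone lay above in both ATO sarcomas, though it overlapped on FPKM, with sums of 760 and 663 CPM in Ctl 1 and Ctl 2 and 765 and 1232 CPM in ATO 1 and ATO 2. The part of these cell types in the levels of the 9 genes was not tested.

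Tigar, which hydrolyses fructose bisphosphate and limits glycolysis (chr6:127085116-127109557), had 7.94 and 13.8 CPM in Ctl 1 and Ctl 2 and 47.0 and 24.4 CPM in ATO 1 and ATO 2. Both ATO sarcomas exceeded both Ctl sarcomas, in CPM as in FPKM, where the values were 2.36, 4.15, 12.9 and 5.45 in the same order. The log2 fold change was 1.72 (SE 0.57, 95% confidence interval 0.21 to 3.22), a 3.29-fold higher level, with an unadjusted p of 0.0328 and an adjusted p of 0.570 in edgeR. It lay between 1.15 and 2.16 with each sarcoma left out in turn. The unadjusted p of Tigar was not under 0.05 on total counts, in limma, with the replicate number as a block, or without ATO 1 or Ctl 1. The order of the sarcomas by Tigar level was that of their muscle sums, and the part of muscle RNA in it was not tested.

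The enzymes that make or remove fructose bisphosphates were described together, of which the Pfkfb enzymes act on the signalling metabolite and the phosphofructokinases and fructose bisphosphatases on the glycolytic one. Of the 8 tested genes of this group, 0 passed the adjusted threshold in edgeR and 4 had an unadjusted p under 0.05, each of them without overlap and with ATO higher, beside 8.51% and 19.7% of all genes tested. The median log2 fold change was 1.43 with 6 positive, against 0.61 with 4 positive on TPM, 0.78 on log2(FPKM + 1) and 2.42 with 9 of 9 positive without Ctl 2. Pfkfb3, which makes the metabolite that Tigar lowers, had 65.5 and 155 CPM in Ctl 1 and Ctl 2 and 321 and 385 CPM in ATO 1 and ATO 2, with a log2 fold change of 1.68 (SE 0.60). Pfkfb1, a related enzyme, had 1.08, 1.22, 4.16 and 6.90 FPKM in the same order, and its log2 fold change was 2.58 (SE 0.59). Pfkm, the muscle phosphofructokinase and the most abundant of the group, had 61.7 and 62.8 CPM in Ctl 1 and Ctl 2 and 893 and 140 CPM in ATO 1 and ATO 2, and Fbp2, the muscle fructose bisphosphatase, had 0.0526, 0.504, 21.8 and 16.2 CPM. Without ATO 1 the log2 fold change of Pfkm went from 3.05 to 1.15. Fbp1 was at or near the limit of detection in Ctl and was not tested. The skeletal muscle sums (22.4, 369, 39515 and 2863 CPM in Ctl 1, Ctl 2, ATO 1 and ATO 2) had the same order of sarcomas as Pfkm and Fbp2. The adipocyte sums (165, 321, 1239 and 8375 CPM) had that of Pfkfb1 and Pfkfb3, which were highest in ATO 2, the sarcoma with the highest mitochondrial share (14.7%). The part of muscle RNA, adipocyte RNA or the mitochondrial share in the levels of this group was not tested.

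The pentose phosphate genes, into which Tigar directs glucose, had positive fitted values for 7 of 7 genes (median log2 fold change 1.29). On the log2(FPKM + 1) scale this held for 6 of the 7, on TPM for 5, and without ATO 2 for 4 (median 0.059). The sum of the list was 509 and 949 CPM in Ctl 1 and Ctl 2 and 586 and 3649 CPM in ATO 1 and ATO 2, so ATO 1 lay within the Ctl range and ATO 2 alone was high. ATO 2 was also the sarcoma with the highest adipocyte sum (8375 CPM) and the highest mitochondrial share (14.7%), and their part in the pentose phosphate levels was not tested. Taldo1, the most abundant, had 65.8 and 205 CPM in Ctl 1 and Ctl 2 and 140 and 682 CPM in ATO 1 and ATO 2. Rpia was the single gene with an unadjusted p under 0.05, at 9.26, 11.7, 23.4 and 38.1 CPM and a log2 fold change of 1.55 (SE 0.49).

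Gls2, the p53-inducible glutaminase (chr10:128194457-128210004), was a low-abundance gene with 60 and 28 counts in Ctl 1 and Ctl 2 and 13 and 6 counts in ATO 1 and ATO 2. In CPM these were 3.16, 1.41, 0.714 and 0.481, with both ATO sarcomas below both Ctl sarcomas. The fitted log2 fold change was −1.91 (SE 0.81, 95% confidence interval −4.03 to 0.21), with an adjusted p of 0.597 in edgeR, and it was −1.22 without Ctl 1 and −2.39 without Ctl 2. The exact Poisson intervals of the counts were 45.8 to 77.2 and 18.6 to 40.5 in the Ctl sarcomas and 6.92 to 22.2 and 2.20 to 13.1 in the ATO sarcomas, and such intervals cover counting error only.

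In the list of glutamine and glutathione genes, 9 of 11 had positive fitted values, with a median log2 fold change of 0.68 (0.34 without Ctl 1, 0.099 on TPM) and 0 past the adjusted threshold in edgeR. On TPM 6 of the 11 were positive. Glul, which makes glutamine and was the most abundant of the list, had 228 and 155 CPM in Ctl 1 and Ctl 2 and 1080 and 2337 CPM in ATO 1 and ATO 2, with a log2 fold change of 3.15 (SE 0.74). Slc1a5, a glutamine transporter, had 66.8 and 157 CPM in Ctl 1 and Ctl 2 and 258 and 532 CPM in ATO 1 and ATO 2, with a log2 fold change of 1.82 (SE 0.69). Both ATO sarcomas also exceeded both Ctl sarcomas for the glutathione genes Gclm (0.68), Gpx1 (0.58) and Gpx4 (1.68), though for Gclm and Gpx1 they overlapped on FPKM. Gpx4 was highest in ATO 2 and was at 0.53 without it, while Gclm and Gpx1 were at 0.40 and 0.34 without Ctl 1. The summed level of the list was 1026 and 1617 CPM in Ctl 1 and Ctl 2 and 2495 and 4643 CPM in ATO 1 and ATO 2. The adipocyte sums had the same order of sarcomas, ATO 2 also had the highest mitochondrial share (14.7%), and the part of either in these levels was not tested.

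Sco2, which delivers copper to cytochrome c oxidase (chr15:89371637-89373846), was near the limit of the counting with 23 and 18 counts in Ctl 1 and Ctl 2 and 3 and 9 counts in ATO 1 and ATO 2. Both ATO sarcomas were below both Ctl sarcomas, at 0.165 and 0.721 CPM against 1.21 and 0.907. Sco2 had a log2 fold change of −1.28 (SE 0.97, 95% confidence interval −3.82 to 1.26), with an adjusted p of 0.739 in edgeR, and the exact Poisson interval of the 3 counts in ATO 1 was 0.619 to 8.77. The fold change was −0.57 without ATO 1 and −2.63 without ATO 2. The gene overlaps Ncaph2 on the other strand by 1190 bases and Tymp on the same strand by 1916 bases. Ncaph2 had 2575, 1842, 1642 and 848 counts in Ctl 1, Ctl 2, ATO 1 and ATO 2, and Tymp had 5, 11, 5 and 3. No source used here says whether the counting used strand, and strand does not separate Sco2 from Tymp, so the Sco2 value is uncertain.

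Other cytochrome c oxidase assembly genes mostly overlapped between the groups. All 10 had positive fitted values, with a median log2 fold change of 0.60, although 9 were positive on total counts, 8 on log2(FPKM + 1), 5 on TPM and 6 without ATO 2 (median 0.053), and 0 had an unadjusted p under 0.05. The ATO sarcomas both exceeded the Ctl sarcomas for Cox11 (0.43), Cox16 (0.73), Cox19 (0.74) and Cox20 (1.52), and on FPKM for Cox16 and Cox20 alone. Without ATO 2 the values of Cox16, Cox19 and Cox20 were 0.47, 0.24 and 1.00. The list summed to 186 and 179 CPM in Ctl 1 and Ctl 2 and 179 and 398 CPM in ATO 1 and ATO 2, so ATO 2 alone was high. That sarcoma also had the highest adipocyte sum (8375 CPM) and mitochondrial share (14.7%), whose part in these levels was not tested. The most abundant, Coa3, had 22.7 and 28.8 CPM in Ctl 1 and Ctl 2 and 17.2 and 54.3 CPM in ATO 1 and ATO 2, and Sco1, the paralog of Sco2, had 14.3, 10.6, 8.57 and 20.7. Sco2 made up 20.9% and 21.1% of the summed Sco1 and Sco2 FPKM in Ctl 1 and Ctl 2, against 5.60% in ATO 1 and 9.83% in ATO 2.

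Ddit4, an mTORC1 inhibitor induced by hypoxia, glucocorticoids and p53 (chr10:59949669-59951834), was the most abundant of the 9 genes by mean FPKM and varied widely within both groups. Its level was 51.4 and 168 CPM in Ctl 1 and Ctl 2 and 238 and 54.8 CPM in ATO 1 and ATO 2. A low and a high sarcoma were thus found in each group. The log2 fold change was 0.42 (SE 0.93, 95% confidence interval −2.03 to 2.87), with an adjusted p of 0.922 in edgeR, and it turned negative in limma on TPM (−0.20), without ATO 1 (−1.01) and without Ctl 1 (−0.20).

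The hypoxia and glucocorticoid genes listed with Ddit4 differed in their own order. Of the 9 hypoxia genes, Ddit4 itself among them, 4 had positive fitted values (1 on TPM), with a median of −0.53 that turned to 0.53 without Ctl 2. Bnip3, a mitophagy gene, was the most abundant, with 50.8, 126, 334 and 257 CPM in Ctl 1, Ctl 2, ATO 1 and ATO 2 and a log2 fold change of 1.74 (SE 0.61), while Ndrg1 had 115, 588, 98.8 and 95.03. Car9, a carbonic anhydrase, lay below in both ATO sarcomas as Ndrg1 did (−1.03 and −1.86), but both were highest in Ctl 2 and were at −0.34 and −0.25 without it. Of the 8 glucocorticoid genes, which again include Ddit4, all had positive fitted values (7 on total counts, 6 on log2(FPKM + 1), 5 on TPM and 5 without ATO 1), with a median of 0.87, and 2 had an unadjusted p under 0.05, beside 49.2% positive and 8.51% with such a p over all genes. Tsc22d3, a glucocorticoid-induced leucine zipper gene, had 75.5 and 140 CPM in Ctl 1 and Ctl 2 and 764 and 206 CPM in ATO 1 and ATO 2, and Zbtb16 had 8.20, 5.04, 160 and 24.4. Both ATO sarcomas also exceeded both Ctl sarcomas for the receptor Nr3c1 (0.90) and the targets Sgk1 (0.83) and Klf9 (1.56), the last overlapping on FPKM and at 0.45 without ATO 1. The log2 fold changes of Tsc22d3 and Zbtb16 went from 2.17 and 3.80 to 0.92 and 1.86 without ATO 1. The glucocorticoid list summed to 872, 835, 2530 and 937 CPM in Ctl 1, Ctl 2, ATO 1 and ATO 2. The skeletal muscle sums (22.4, 369, 39515 and 2863 CPM) were likewise highest in ATO 1 and had the same order of sarcomas as Tsc22d3. The part of muscle RNA in the levels of these genes was not tested.

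The pathway on which sestrins and Ddit4 act was described in its parts. Of the 15 GATOR and amino acid sensing genes, 5 had positive and 10 negative fitted values, the median was −0.27 (−0.050 without Ctl 1, −0.85 on TPM), and 1 (Rragd) had an unadjusted p under 0.05, beside 8.51% of all genes tested. Both ATO sarcomas were above both Ctl sarcomas for 2 of the 15 and below them for 6, beside 19.7% and 20.2% of all genes. Rragd, a Rag GTPase of the mTORC1 recruitment step, had 4.21, 3.83, 79.4 and 19.1 CPM in Ctl 1, Ctl 2, ATO 1 and ATO 2, with a log2 fold change of 3.61 (SE 0.83). Both ATO sarcomas lay below both Ctl sarcomas for Wdr59 (−0.87) and Sec13 (−0.59) of GATOR2, the group that sestrins bind, for Depdc5 (−0.57) and Nprl3 (−0.43) of GATOR1, and for Rraga (−0.45), the most abundant of the list. Rragc was the other gene with ATO above Ctl (0.43), which overlapped on FPKM. Castor1, an arginine sensor that also binds GATOR2, had 7.52 and 34.3 CPM in Ctl 1 and Ctl 2 and 10.3 and 9.13 CPM in ATO 1 and ATO 2. Ctl 2 alone was high, and the log2 fold change of −1.10 (SE 0.82) turned positive without it. Leaving out 1 sarcoma also moved Rragd to 2.23 (without ATO 1), Depdc5 to −0.23 (without Ctl 1), and Nprl3 to −0.11 and Rragc to 0.044 (without ATO 2).

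Of the 12 TSC and mTORC1 genes, 7 had positive fitted values, with a median of 0.14, against 3 on total counts and 2 on log2(FPKM + 1), where the median was negative, as it was without ATO 1. Deptor, an inhibitor of mTOR kinase, was the gene with the clearest separation, at 28.2 and 22.1 CPM in Ctl 1 and Ctl 2 and 160 and 204 CPM in ATO 1 and ATO 2, with a log2 fold change of 2.85 (SE 0.42) and an adjusted p of 0.570 in edgeR. Rps6kb1, an mTORC1 substrate, lay marginally above in ATO in CPM (0.10, but negative on total counts), and the mTORC1 subunits Rptor (−0.36) and Mlst8 (−0.58) below. Rptor was at −0.033 without Ctl 2, Mlst8 at −0.32 without Ctl 1 and Rps6kb1 at 0.023 without ATO 1. Eif4ebp1, the most abundant, had 53.4, 82.9, 114 and 81.4 CPM in Ctl 1, Ctl 2, ATO 1 and ATO 2.

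Regulators and antioxidant partners were also examined. Of the 4 FoxO factors, 3 had positive fitted values (2 without ATO 1), with a median of 0.84 (0.12 without ATO 1), and Foxo4 had 24.4, 35.4, 108 and 62.0 CPM in Ctl 1, Ctl 2, ATO 1 and ATO 2 (log2 fold change 1.51, SE 0.48), while Foxo1 had 24.2, 36.1, 113 and 49.7 (1.43, SE 0.56, and 0.70 without ATO 1). The skeletal muscle sums (22.4, 369, 39515 and 2863 CPM) had the same order of sarcomas as Foxo1 and Foxo4. The part of muscle RNA in the FoxO levels was not tested. Of the 7 ATF4 pathway genes, Sesn2 among them, 4 had positive fitted values, with a median of 0.25, against 3 on total counts. That median was −0.17 without Ctl 1 and −0.12 without ATO 1 or without ATO 2. Atf4 itself had 206 and 244 CPM in Ctl 1 and Ctl 2 and 260.0 and 174 CPM in ATO 1 and ATO 2, the pseudokinase gene Trib3 lay below in ATO (−1.17, and −0.45 without Ctl 2) and Ddit3, a stress factor, above in CPM (0.51). The symbol Ddit3 had 2 rows in the deposited data, and the value is that of the row matched by gene identifier. Of the 9 peroxiredoxin-related genes, whose products some sestrins help to restore, 6 had positive fitted values, with a median of 0.10, against 4 on total counts and 3 on log2(FPKM + 1). The median was 0.36 without Ctl 1, 0.21 without Ctl 2 and 0.037 without ATO 2. It was negative on total counts (−0.17), log2(FPKM + 1) (−0.16) and TPM (−0.39). This list summed to 1582, 1685, 1711 and 2862 CPM in Ctl 1, Ctl 2, ATO 1 and ATO 2. Adipocyte sum (8375 CPM) and mitochondrial share (14.7%) were also highest in ATO 2, and their part was not tested. Prdx3 had 47.5 and 39.4 CPM in Ctl 1 and Ctl 2 and 96.1 and 300 CPM in ATO 1 and ATO 2 (log2 fold change 2.19, SE 0.67, and 1.15 without ATO 2), Prdx4 lay below in ATO (−0.30, and −0.10 without ATO 2), and Prdx1, the most abundant, overlapped between groups.

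For reference, Trp53 had 162 and 164 CPM in Ctl 1 and Ctl 2 and 55.2 and 57.4 CPM in ATO 1 and ATO 2, with a log2 fold change of −1.53 (SE 0.37). The pattern of Trp53 resembled that of Sesn3, with close values within each group and lower values in both ATO sarcomas. Cdkn1a, the cell-cycle inhibitor that p53 induces, had 18.3, 57.7, 268 and 214 CPM in Ctl 1, Ctl 2, ATO 1 and ATO 2, with a log2 fold change of 2.67 (SE 0.70). Mdm2, which degrades p53, had 43.8, 84.6, 134 and 97.4 CPM, with a log2 fold change of 0.85 (SE 0.49) that lay between 0.45 and 1.398 with a sarcoma left out, and the groups overlapped on FPKM. Across these lists, 0 genes passed the adjusted threshold in edgeR with the filter, with a smallest adjusted p of 0.570. Without the filter, edgeR passed 541 genes in all (1.75%). Cell type markers aside, these included 1 gene in each of the AMPK, GATOR, TSC and mTORC1, fructose bisphosphate, glutamine, glucocorticoid and reference lists. In DESeq2 the list genes past the threshold, cell type markers aside, were Prkaa2, Rragd, Deptor, Pfkfb1, Pfkm, Fbp2, Glul, Zbtb16 and Cdkn1a, beside 753 genes in all.

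The order of the 9 genes by level was compared on FPKM as mean ± SD (n = 2). In Ctl the order was Ddit4 (68.9 ± 52.2), Prkab1 (24.6 ± 5.59), Sesn2 (8.20 ± 0.417), Sesn1 (7.38 ± 4.26), Sesn3 (6.92 ± 0.615), Prkab2 (5.71 ± 0.969), Tigar (3.25 ± 1.27), Sco2 (0.925 ± 0.177) and Gls2 (0.720 ± 0.382). In ATO it was Ddit4 (80.9 ± 78.3), Sesn1 (30.4 ± 31.5), Prkab1 (18.8 ± 0.276), Prkab2 (15.8 ± 16.4), Tigar (9.18 ± 5.27), Sesn2 (6.24 ± 0.771), Sesn3 (1.49 ± 0.120), Sco2 (0.300 ± 0.240) and Gls2 (0.160 ± 0.0707). Between neighbours in this order, the ranges of mean ± SD lay apart in Ctl for Prkab1 and Sesn2, for Prkab2 and Tigar and for Tigar and Sco2, and in ATO for Sesn2 and Sesn3 and for Sesn3 and Sco2. They overlapped for the other neighbours.

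**Figure D3:**
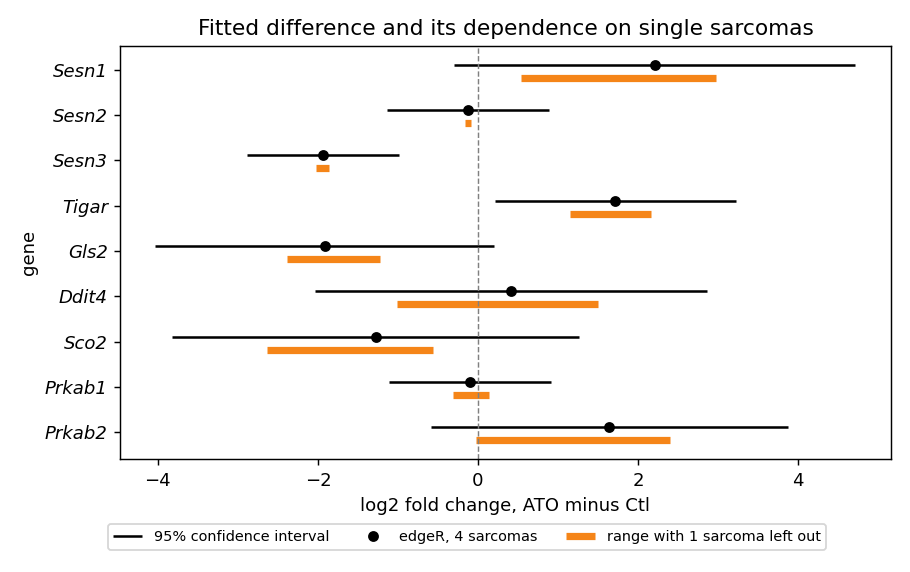
Log2 fold change of each of the 9 genes with its 95% confidence interval (black) and the range obtained with each sarcoma left out in turn (orange). The range of Sesn3 is narrow (−2.02 to −1.86), while those of Ddit4 (−1.01 to 1.51), Prkab1 (−0.31 to 0.13) and Prkab2 (−0.030 to 2.40) cross zero.

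To show the DNA next to these genes, promoter windows of 300 bases (250 before and 50 after the start) were read from RefSeq on GRCm38.p6. A window was found for 8 of the 9 genes, with a pair of windows for Sesn1, and Gls2 is named only. Both strands were searched for the p53 half-site, its form with the CATG core, TGATGNAA (ATF4 type), GTAAACA (FoxO type) and ACGTG (hypoxia type), which had matches in 8.36%, 1.93%, 3.97%, 3.65% and 19.6% of 32851 windows of the same length. The CATG form is contained in the half-site. Across the 9 windows, the half-site matched once, in the downstream Sesn1 window, GTAAACA matched once, in the upstream Sesn1 window, and ACGTG matched in Ddit4 and, on both strands at overlapping positions, in Sco2. The windows of Sesn3, Tigar, Sesn2, Prkab1 and Prkab2 held none of the 5 motifs. A match describes letters and not a site of binding, and its absence says only that these letters are not in the window.

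The windows of Sesn1 and Ddit4 are shown as examples that hold a match, in capitals, without that of Sco2, a gene near the limit of the counting, and those of Sesn3 and Tigar because these genes had an unadjusted p under 0.05. They lie at chr10:41810324-41810623 and chr10:41887189-41887488 (plus strand) for Sesn1, at chr9:14276051-14276350 (plus strand) for Sesn3, at chr6:127109503-127109802 (minus strand) for Tigar and at chr10:59951721-59952020 (minus strand) for Ddit4, each printed from 5′ to 3′ on the strand of the gene. The capitals mark the GTAAACA match, read on the other strand, in the upstream Sesn1 window, the half-site match in the downstream Sesn1 window, and the ACGTG match in Ddit4.
Sesn1 upstream window: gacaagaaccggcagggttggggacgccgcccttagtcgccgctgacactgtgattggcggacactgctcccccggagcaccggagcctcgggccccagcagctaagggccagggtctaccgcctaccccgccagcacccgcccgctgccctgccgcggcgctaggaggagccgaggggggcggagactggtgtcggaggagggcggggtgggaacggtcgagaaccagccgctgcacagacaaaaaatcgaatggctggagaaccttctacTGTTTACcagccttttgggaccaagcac
Sesn1 downstream window: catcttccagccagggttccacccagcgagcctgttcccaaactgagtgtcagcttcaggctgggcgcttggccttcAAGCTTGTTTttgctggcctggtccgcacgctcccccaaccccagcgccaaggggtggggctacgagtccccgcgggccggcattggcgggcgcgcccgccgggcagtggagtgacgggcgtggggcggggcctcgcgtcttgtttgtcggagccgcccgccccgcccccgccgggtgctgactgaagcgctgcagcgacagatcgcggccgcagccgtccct
Sesn3 window: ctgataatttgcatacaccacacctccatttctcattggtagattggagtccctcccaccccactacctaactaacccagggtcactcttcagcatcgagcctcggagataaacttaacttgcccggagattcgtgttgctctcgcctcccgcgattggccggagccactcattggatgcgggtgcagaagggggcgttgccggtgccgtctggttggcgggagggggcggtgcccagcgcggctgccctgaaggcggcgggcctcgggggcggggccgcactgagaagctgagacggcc
Tigar window: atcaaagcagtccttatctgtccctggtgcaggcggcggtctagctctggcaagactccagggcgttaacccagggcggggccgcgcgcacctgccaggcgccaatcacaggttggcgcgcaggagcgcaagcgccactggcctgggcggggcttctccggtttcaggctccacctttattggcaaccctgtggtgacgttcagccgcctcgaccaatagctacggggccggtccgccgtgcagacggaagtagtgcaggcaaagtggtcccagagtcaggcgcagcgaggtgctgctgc
Ddit4 window: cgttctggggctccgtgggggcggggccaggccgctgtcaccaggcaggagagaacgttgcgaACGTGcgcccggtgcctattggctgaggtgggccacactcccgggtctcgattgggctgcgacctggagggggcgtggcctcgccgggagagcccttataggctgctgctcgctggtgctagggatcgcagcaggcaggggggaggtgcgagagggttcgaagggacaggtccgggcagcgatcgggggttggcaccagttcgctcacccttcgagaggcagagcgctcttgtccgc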

How the data were processed

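RNA was sequenced from 4 sarcomas, grouped by the treatment in their labels. Reads were trimmed with cutadapt 1.9.1, aligned to GRCm38 with HISAT2 2.0.1 and counted with HTSeq by the authors, who deposited raw counts per gene. The deposited FPKM equalled count divided by exonic length and total count in every sarcoma. The kit named in the labels differs from that in the methods, and deposited coordinates differ from GRCm38, so positions were taken from GENCODE M21 by gene identifier.

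The deposited counts were filtered with filterByExpr and tested in R 4.3.3 with the quasi-likelihood F-test of edgeR 4.0.16 (TMM factors 1.09 and 1.11 for the Ctl pair, 1.01 for ATO 1, 0.822 for ATO 2, Benjamini-Hochberg adjustment over all genes tested). The test was tried on simulated counts. Standard errors were derived from the fold change and the F statistic. A count of 0 allows up to 3 counts, 0.165 to 0.197 CPM. Among genes over 10 counts, no pair of libraries had equal counts for more than 0.590%. Alternatives used DESeq2 1.42.0 and limma 3.58.1, other scalings and filters, a replicate block and each sarcoma left out. Tables and figures were made in Python 3.11.15.

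The genes and lists were chosen with earlier results of these data known. Named from the lists were genes with an unadjusted p under 0.05 or groups that did not overlap, the most abundant gene of each list, and paralogs or partners of the 9 genes; some genes that this rule names are not reported here. A comparison of sestrin and AMPK beta proteins had been planned and was not run.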

Additional observations from a re-analysis of the deposited data

How the results depend on the processing

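Past an adjusted p of 0.05, DESeq2 called 753 genes, edgeR without the filter 541 and limma on TPM 1, against 0 in the other 11 alternatives. Of the 9 genes, DESeq2 called 1 (Sesn3), beside 4.12% of all genes given an adjusted p. Genes among the 9 with an unadjusted p under 0.05 numbered 2 in edgeR, 3 in DESeq2 (Sesn1, Sesn3 and Tigar), 4 without the filter, and 1 each on total counts and in limma on log2(FPKM + 0.1), log2(FPKM + 1) and TPM. Over all genes such a p was found for 1463 of 17188 in edgeR, 2460 of 30859 in DESeq2 and 2992 of 30859 without the filter. On total counts it was found for 1517 of 17188, and in the limma fits, in the order given, for 1197, 1127 and 1194 of 14383. ATO lay above Ctl for 2 genes in CPM, 1 in FPKM and 1 in total-count CPM, and below Ctl for 4, 5 and 5. The shares of all genes in CPM were 19.7% above and 20.2% below, and those on the other scales are not given here. With a sarcoma left out, an alternative chosen after seeing the data, ATO lay above for 2 to 4 genes and below for 4 to 5. Groups with fewer sarcomas separate more easily, so the CPM shares are no background for these last counts.

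Ddit4 turned to −0.20 in limma on TPM, −1.01 without ATO 1 and −0.20 without Ctl 1 (highest 1.51), Prkab1 to 0.039 without ATO 1 and 0.13 without Ctl 2 (lowest −0.31), and Prkab2 to −0.030 without ATO 1 (highest 2.40). The cause was not tested. The other alternatives kept the direction of each gene. A group left with 1 sarcoma was assumed to vary like the other group. Gls2 and Sco2 had a mean FPKM below 1 and were not fitted on FPKM or TPM.

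With the replicate number as a block, 0 genes passed the adjusted threshold, 1165 had an unadjusted p under 0.05 (1463 without the block), and among the 9 genes these were Sesn1 and Sesn3. Deviations of same-numbered sarcomas correlated at −0.0205, and nothing in the labels pairs them. Scaling moved the median of all genes from −0.016 to −0.28 on total counts, −0.23 and −0.28 in limma on log2(FPKM + 1) and log2(FPKM + 0.1), and −0.47 on TPM, so values on those scales are read against these medians. The median of all genes was 0.080 without Ctl 1, 0.15 without Ctl 2, −0.16 without ATO 1 and −0.094 without ATO 2. Values of genes and lists with a sarcoma left out are likewise read against these medians. With 2 sarcomas a group, a biological coefficient of variation of 62.5% and 3 to 60 counts for Gls2 and Sco2, small differences were not detectable. Large ones did not pass the adjusted threshold in edgeR either, as for Lep (log2 fold change 12.4, adjusted p 0.570). Not passing it therefore does not show that a gene was unchanged.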
